A study of Homo sapiens with 24 samples.

Results

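The nuclear pore complex genes were 31 genes of the nucleoporins and of the proteins built into the pore with them, taken as a named list. Their members in the data were the splice-junction rows that lay on the gene's strand and within its span on hg19, the human build also called GRCh37, with spans and symbols from GENCODE. This gave 8575 rows, 2682 of them exon–intron boundaries and 5893 spliced junctions, of 1823643 rows used in all, and 21362 genes held at least 1 row. The nuclear pore is the channel through which RNA, proteins and ribosomal subunits pass between nucleus and cytoplasm. It is built from ring-shaped layers: an outer ring (the Y complex) on each face, an inner ring between them, membrane proteins that anchor the rings in the nuclear envelope, a central channel of proteins rich in phenylalanine–glycine repeats, filaments on the cytoplasmic face and a basket on the nuclear face. Several nucleoporins also act on chromatin, on mRNA export and on kinetochores.

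The samples were HCT-116 cells, a human colon carcinoma line, in which either wild-type (WT) PHF5A or PHF5A with the Y36C mutation was expressed from a lentivirus in the parental line, so that the cells' own PHF5A was present in all 4 groups. PHF5A is a subunit of SF3b, the part of the U2 snRNP that holds the branch point of an intron. Each genotype was treated for 6 h with DMSO or with E7107, a pladienolide derivative that binds SF3b, with 6 samples in each of the 4 groups. The labels give no dose and the study's methods name more than 1. The study's results describe its RNA-seq at the lower of these, but the labels do not tie a dose to these samples, so none is stated here. Each genotype was 1 engineered line, and the methods describe 6 replicate treatments without saying whether they were of separate cultures, so p-values measure the spread between these samples, which may in part be technical. The mutation could not be read from the files, which hold no base calls.

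Poly(A) RNA was sequenced, and each file gave, for each row, the percent spliced in (PSI): the share of reads at a splice site that belonged to that junction, with the reads running unspliced across the exon–intron boundary counted as a junction of their own. The PSI of a boundary is called retention below. A boundary at an acceptor also counts transcripts that were spliced at another acceptor upstream of it. The reads behind a PSI are not in the files, so the depth of a single value is unknown. Of 2760 splice sites listed for the nuclear pore genes, the median number with reads was 1628.5 with DMSO and 1499.5 with E7107 in WT cells, and 1633.5 and 1652 in Y36C cells. WT E7107 was lower over all genes too, with a median of 282785.5 of 636130 sites against 330507 to 337968.5 in the other groups. Among epithelial markers, all 30 annotated sites of CDH1 and all 14 of KRT18 had reads in every sample, whereas CDH17 had reads at no more than 1 of 4. Of markers of other cells, PTPRC and CD3E had no site listed, ALB had reads at no more than 1 site, and 91 to 96 of 96 sites of COL1A1 had reads.

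Ends of introns picked from the retention results are shown first, as the last 60 bases of an intron read 5′ to 3′ on the gene's strand, from the GRCh37 sequence. The first set ends introns that hold leading boundary rises in WT under E7107, in POM121 (chr7:72411296-72411355, +), AHCTF1 (chr1:247030654-247030713, −) and NUP35 (chr2:183992955-183993014, +). In NUP35 the rise was at the donor, to a mean of 74.1%, and the acceptor was at 6.49%. The second set ends introns that were among the leading rises in Y36C, in NUP85 (chr17:73231135-73231194, +) and NUP214 (chr9:134021456-134021515, +). The third ends introns with little change in WT, among those tested at both ends, in NUP188 (chr9:131763748-131763807, +), SEC13 (chr3:10345857-10345916, −) and NUP107 (chr12:69113298-69113357, +). Capitals mark a match to CTNAC, the consensus core around a human branch point, and each sequence ends with the ag of the acceptor.
POM121 intron 9: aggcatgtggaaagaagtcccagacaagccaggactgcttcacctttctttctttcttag
AHCTF1 intron 25: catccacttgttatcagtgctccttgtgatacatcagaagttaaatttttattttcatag
NUP35 intron 1: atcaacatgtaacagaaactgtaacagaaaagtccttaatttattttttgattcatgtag
NUP85 intron 17: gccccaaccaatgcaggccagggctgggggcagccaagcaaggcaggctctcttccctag
NUP214 intron 12: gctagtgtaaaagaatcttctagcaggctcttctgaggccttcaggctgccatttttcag
NUP188 intron 34: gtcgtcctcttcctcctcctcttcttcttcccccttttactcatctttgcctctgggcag
SEC13 intron 7: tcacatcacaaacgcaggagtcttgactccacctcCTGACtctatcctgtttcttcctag
NUP107 intron 13: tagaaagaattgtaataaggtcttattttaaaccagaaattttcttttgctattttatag

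Of these 8, the letters CTNAC on the sense strand stood only in the SEC13 intron. Over all annotated introns that were spliced in most transcripts, 26.6% held them in the last 60 bases, and of the 648 such introns of the nuclear pore genes 136 did (21%). The 136 had a median change of 4.67 points in WT, and the 512 without a match had 6.78 points. The retention of POM121 intron 9, the mean of its 2 ends, was 13.3% in WT DMSO and 95.7% in WT E7107, against 10.8% and 17.1% in the Y36C groups. AHCTF1 intron 25 went from 2.53% to 82.9% in WT and from 1.81% to 3.61% in Y36C. NUP85 intron 17 had the opposite order, with 9.31% and 15.6% in the WT groups and 14.5% and 35% in the Y36C groups. NUP188 intron 34 stood at 2.86% and 2.79% in the WT groups and 3.28% and 3.16% in the Y36C groups, DMSO first.

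To set genes of few and many introns side by side, the retention of a gene was taken as its mean boundary PSI over rows with reads in all 24 samples, and limma was run on its log odds across 10429 genes. In WT, E7107 raised the retention of 27 of the 31 genes, where 72.2% of all genes tested rose, and lowered it in AAAS and NUP210, where 7.6% fell. NUP133 and NUP188 were not called. In Y36C cells 22 genes rose, against 47.4% of all genes tested, and none fell, against 0.892% (limma, with no fall at an unadjusted p under 0.05 either). The median change over the 31 genes was 8.40 percentage points in WT and 1.00 in Y36C, and over all genes 6.82 and 1.05 points. With the median over a gene's boundaries in place of the mean, 12 of the 22 rises in Y36C were still called, and NUP62 was added. The WT and Y36C comparisons use separate samples, and the interaction below uses all of them.

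**Figure D1:**
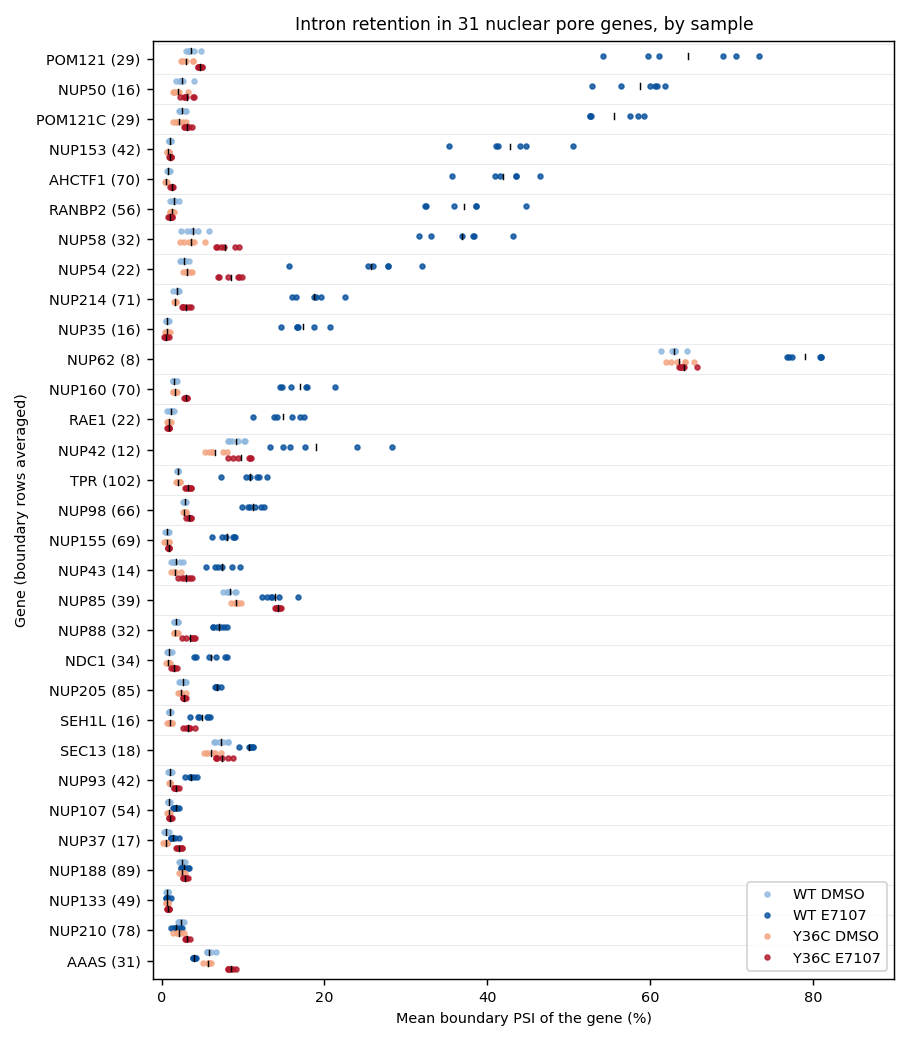
Mean boundary PSI of each nuclear pore gene (x axis, percent) in each of the 24 samples; points are samples coloured by group, black ticks are group means, and the number after each symbol on the y axis is the count of boundaries averaged. The WT E7107 samples of POM121 sit between 54.2% and 73.3% while its other groups stay at or below 4.94%, and AAAS at the lower end has its WT E7107 samples below and its Y36C E7107 samples above both DMSO groups.

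The nuclear basket is the fibrous cap on the nucleoplasmic side. All 3 of its genes rose in WT, by a median of 41.8 points. NUP153, which docks the basket to the ring, had retention of 0.869, 0.979 and 1.20% (lowest, median and highest sample) in WT DMSO and 35.3, 42.7 and 50.6% in WT E7107. In Y36C it was 0.663, 0.811 and 0.972% with DMSO and 0.937, 1.10 and 1.15% with E7107. The WT groups were far apart and the Y36C groups overlapped, and the log odds rose by 3.63 ± 0.0864 (SE) in WT (limma, adjusted p = 9.51e-13) and by 0.135 ± 0.0384 in Y36C (adjusted p = 0.0123). NUP50, a mobile basket protein that helps release import cargo, went from 1.79, 2.34 and 3.96% to 52.8, 60.3 and 61.8% in WT. Its Y36C samples covered 1.46 to 3.25% with DMSO and 2.25 to 4.01% with E7107. TPR, the coiled-coil protein that forms the basket filaments, rose less, from a mean of 1.96% to 10.9% in WT and from 2.05% to 3.31% in Y36C.

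Of the membrane proteins, POM121 and its near copy POM121C, which anchor the pore in the envelope, rose most in WT. POM121 was at 2.96, 3.36 and 4.80% in WT DMSO and at 54.2, 65 and 73.3% in WT E7107, and at 2.39, 2.81 and 3.87% and 4.48, 4.68 and 4.94% in the Y36C groups. Its Y36C E7107 samples lay above every Y36C DMSO sample, and its log odds rose by 3.65 ± 0.135 in WT (limma, adjusted p = 5.19e-11) and by 0.370 ± 0.0692 in Y36C (adjusted p = 0.000857). POM121C had means of 2.50% and 55.5% in WT and 2.17% and 3.16% in Y36C. The sequences of the pair are nearly identical, so the reads of each could have been placed on the other and their values are not independent. NDC1, which spans the membrane at the fused envelope, rose from 0.87% to 6.08% in WT and from 0.84% to 1.54% in Y36C. NUP210, a glycoprotein of the membrane lumen, went the other way in WT. Its retention was 2.07, 2.31 and 2.79% in WT DMSO and 1.20, 1.77 and 2.48% in WT E7107, groups that overlapped (log odds −0.185 ± 0.0780, limma, adjusted p = 0.0448). The call was lost without any 1 of WT DMSO replicates 1, 2, 3, 5 and 6 or WT E7107 replicates 3, 4, 5 and 6 (limma, adjusted p 0.0553 to 0.0937). In Y36C it rose from a mean of 2.10% to 3.10%.

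The 4 central channel genes carry the repeats that form the permeability barrier or hold them in place, and all 4 rose in WT, by a median of 19.5 points. NUP58 had retention of 2.40, 3.70 and 5.82% in WT DMSO and 31.6, 37.6 and 43.2% in WT E7107. In Y36C it went from 2.29, 3.53 and 5.33% to 6.73, 7.53 and 9.46%, without overlap. NUP54 rose from a mean of 2.77% to 25.8% in WT and from 3.17% to 8.48% in Y36C, the largest rise in Y36C of the 31 genes (log odds 0.874 ± 0.0729, limma, adjusted p = 1.61e-06). Among the 22 boundaries averaged was the acceptor of exon 8, which went from 8.91% to 50.8% in Y36C. That boundary also counts transcripts spliced at an acceptor upstream of it, so the rise of NUP54 is not retention alone. NUP98, whose protein also binds mRNA export factors, rose from 2.83% to 11.2% in WT and from 2.8% to 3.41% in Y36C. NUP62 stood apart, with 62.9% in WT DMSO and 63.6% in Y36C DMSO over only 8 boundaries. All rows of NUP62 lie inside the span of IL4I1 or of a read-through gene on the same strand, so its high values cannot be separated from those genes' transcripts. It rose to 79.0% in WT and was 64.2% in Y36C E7107 (adjusted p = 0.597).

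The cytoplasmic face holds the filaments and the mRNA export platform. RANBP2, the large filament protein with SUMO ligase activity, had retention of 1.07, 1.49 and 2.11% in WT DMSO and 32.3, 37.2 and 44.8% in WT E7107. With Y36C the same values were 1.02, 1.28 and 1.52% and 0.815, 1.15 and 1.27%, so that no rise was called there (log odds −0.0777 ± 0.0542, limma, adjusted p = 0.266). RANBP2 has close relatives in the RGPD gene family, and reads could have been split between them. RAE1, an mRNA export factor, followed the same order, with means of 1.12% and 15% in WT and 0.90% and 0.86% in Y36C. NUP214 rose from 1.88% to 18.7% in WT and from 1.67% to 3.00% in Y36C, and its partner NUP88 from 1.80% to 7.08% and from 1.70% to 3.49%. NUP42, which assists the export helicase, had WT E7107 samples that ranged from 13.4 to 28.3% around a median of 16.7%, above the 8.20 to 10.2% of WT DMSO.

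AAAS encodes ALADIN, the pore protein mutated in triple A syndrome, and was 1 of the 3 genes whose E7107 effect was larger in Y36C. Its retention was 5.52, 5.67 and 6.63% in WT DMSO and 3.83, 4.07 and 4.28% in WT E7107. In Y36C it was 5.11, 5.75 and 6.03% with DMSO and 8.18, 8.40 and 9.14% with E7107. Neither pair of groups overlapped. The log odds fell by 0.325 ± 0.0407 in WT (limma, adjusted p = 8.82e-06) and rose by 0.380 ± 0.0342 in Y36C (adjusted p = 2.8e-06), and the difference of the effects was 0.706 ± 0.0482 (adjusted p = 5.74e-12).

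The inner ring and the outer ring moved least in WT, with median rises of 4.16 and 3.98 points, but each ring spanned a wide range. In the inner ring NUP35, which contacts the membrane, rose from a mean of 0.67% to 17.4% in WT and was at 0.66% and 0.55% in the Y36C groups. NUP155 rose from 0.70% to 8.04% in WT, and NUP93, the scaffold that links inner ring to channel, from 1.05% to 3.64%. NUP93 was the only inner ring gene called in Y36C, where it rose from 1.00% to 1.76%. NUP188 was at 2.46% and 2.8% in WT (adjusted p = 0.186) and 2.52% and 2.89% in Y36C, and 50 of its rows lie inside a read-through gene.

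In the outer ring AHCTF1, also called ELYS, which recruits the ring to chromatin after mitosis, had the widest change. Its retention was 0.682, 0.813 and 1.01% in WT DMSO and 35.7, 42.5 and 46.4% in WT E7107, and 0.405, 0.558 and 0.613% and 1.07, 1.27 and 1.46% in the Y36C groups. NUP160 rose from a mean of 1.57% to 17% in WT and from 1.63% to 3.01% in Y36C. NUP133 belongs to the same subcomplex and was at 0.573, 0.714 and 0.830% in WT DMSO and 0.512, 0.673 and 1.12% in WT E7107 (log odds 0.00133 ± 0.0613, limma, adjusted p = 0.985). NUP107, its direct partner, rose from 0.85% to 1.72% in WT. NUP85 rose in both genotypes, from 8.37% to 13.9% in WT and from 9.16% to 14.3% in Y36C, and the difference of the effects was −0.0566 ± 0.0644 on the log odds scale (adjusted p = 0.438). NUP37 rose more in Y36C, from 0.53% to 2.20%, than in WT, from 0.57% to 1.42% (adjusted p of the difference 0.0117). With the median over boundaries that difference had the opposite sign. SEH1L rose in both genotypes, from a mean of 1.00% to 4.98% in WT and from 1.04% to 3.30% in Y36C. In Y36C 2 of its 5 tested boundaries rose, and over 8 of its introns the median change was 0.057 points and the highest 17.2. NUP43 rose from 1.74% to 7.44% in WT and from 1.66% to 2.94% in Y36C, where its sign turned with the median over boundaries (−0.00901 points). SEC13, a subunit shared with the COPII coat, rose from 7.29% to 10.8% in WT and from 6.09% to 7.43% in Y36C, and the call in Y36C was lost without any 1 of Y36C DMSO replicates 1, 2 and 4 or Y36C E7107 replicates 2, 4 and 5 (limma, adjusted p 0.0536 to 0.0680). Its 18 boundaries included the farther acceptor of the last intron, which also counts transcripts spliced at the nearer acceptor. That boundary was at 88.2% and 84.4% in the WT groups and 75.6% and 80.6% in the Y36C groups, DMSO first.

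The genotype's effect on the response was tested as the interaction of genotype and treatment over all 24 samples. Of the 31 genes 24 had a smaller rise in Y36C than in WT, against 60.6% of all genes tested, and AAAS, NUP210 and NUP37 had a larger effect in Y36C, against 13.4%. NUP133, NUP85, NUP188 and NUP42 were not called. The largest differences were in POM121 (−59.3 points), NUP50 (−55.1 points) and POM121C (−52.0 points). The mean over all 1330 member boundaries with reads in every sample went from 2.59% with DMSO to 16.6% with E7107 in WT, and from 2.47% to 3.59% in Y36C. Over all 202775 such boundaries it went from 5.99% to 17.9% and from 5.83% to 7.90%.

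Among single boundaries, 853 of the nuclear pore genes were tested in WT. Of these, 697 rose (81.7%, against 70.9% of all boundaries tested) and 41 fell (5.78% of all boundaries tested fell). In Y36C 140 of 455 rose (27.5% of all rose) and 9 fell (1.43% of all fell). A boundary entered the test where every sample of 1 group or more had a PSI over 0, so many of those tested in WT were let in by the E7107 samples alone. In AHCTF1, RANBP2 and NUP153 every boundary tested in WT rose, 65, 53 and 40 in number. Of those 3 genes, AHCTF1 had 6 of 16 boundaries called up in Y36C, NUP153 had 2 of 16 and RANBP2 none of 13. In AAAS 14 of 19 tested boundaries fell in WT and 10 of 23 rose in Y36C. NUP210 had 9 of 18 fall in WT and 8 of 24 rise in Y36C. The interaction called 621 of 901 boundaries smaller in Y36C and 58 larger, where 54.9% and 8.97% of all boundaries tested were. Many of the 901 were likewise let in by E7107 samples alone, as only 406 were tested between the DMSO groups. Where WT E7107 alone let a boundary in, a smaller effect in Y36C was the likelier call from the start.

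The 10 leading boundary rises in WT, at most 1 a gene, had means of 57.6 to 95.6% with E7107. The donor of POM121 intron 9 was at 7.14, 11.2 and 19.2% in WT DMSO and at 84.6, 97 and 100% in WT E7107. In Y36C it was at 5.88, 8.70 and 20% and at 7.69, 17.6 and 31%. The WT groups did not overlap and the Y36C groups did (limma, adjusted p = 1.13e-06 and 0.313). The donor of NUP35 intron 1 was at 0, 0 and 2.63% in WT DMSO and 58.3, 75.7 and 84.4% in WT E7107, and no Y36C sample was above 6.58%. NUP205 intron 5 had its donor boundary at 0, 0.913 and 2.90% in WT DMSO and 51.8, 56.2 and 68.5% in WT E7107, while the highest of the 12 Y36C samples was 2.61%.

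Falls in WT were smaller in points. The acceptor of AAAS intron 15 went from 4.84, 7.70 and 13.4% to 0.704, 0.844 and 1.63% in WT, without overlap (limma, adjusted p = 4.28e-06), and was at 1.32, 4.36 and 11.5% and 6.45, 8.15 and 12% in Y36C. The acceptor of NUP107 intron 11 went from 3.30, 6.58 and 8.95% to 0, 0 and 0.813% in WT and overlapped between the Y36C groups. In Y36C the acceptor of NUP205 intron 4 fell from 4.46, 6.75 and 10% to 0.676, 2.56 and 4.17%, while in WT it rose from a median of 5.68% to 35.7%. The acceptor of RANBP2 intron 10 fell by 8.29 points in Y36C and rose by 30.4 points in WT.

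Retention was next followed along each gene over the 648 annotated introns that were spliced in most transcripts, numbered 5′ to 3′ on the MANE transcript. An intron was kept where both ends had reads in every sample and its junction had a mean PSI of at least 50% at both in WT DMSO. The PSI of the other groups did not enter this choice. In WT 258 introns (39.8%) rose by at least 10 points, against 36.4% of such introns in all genes, and in Y36C 13 (2.01%) did, against 5.7%. Differences between genes took 80.1% of the sum of squares of the WT change over the introns of the 30 genes with at least 5 introns, and 20.8% of that of the Y36C change. Over all genes the shares were 78.7% and 31.8%. Within a gene the WT change still ranged widely in some, from 1.60 to 80.3 points in AHCTF1 and from 8.77 to 80.8 points in POM121C. Every intron of POM121, NUP153, RANBP2, NUP50, NUP58 and NUP54 rose by at least 10 points in WT, and none of NUP107, NUP133, NUP188, NUP93, NUP210 or NDC1 did. The changes at the donor and the acceptor of an intron had a Spearman coefficient of 0.916 over the 648 introns, which share libraries and genes.

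**Figure D2:**
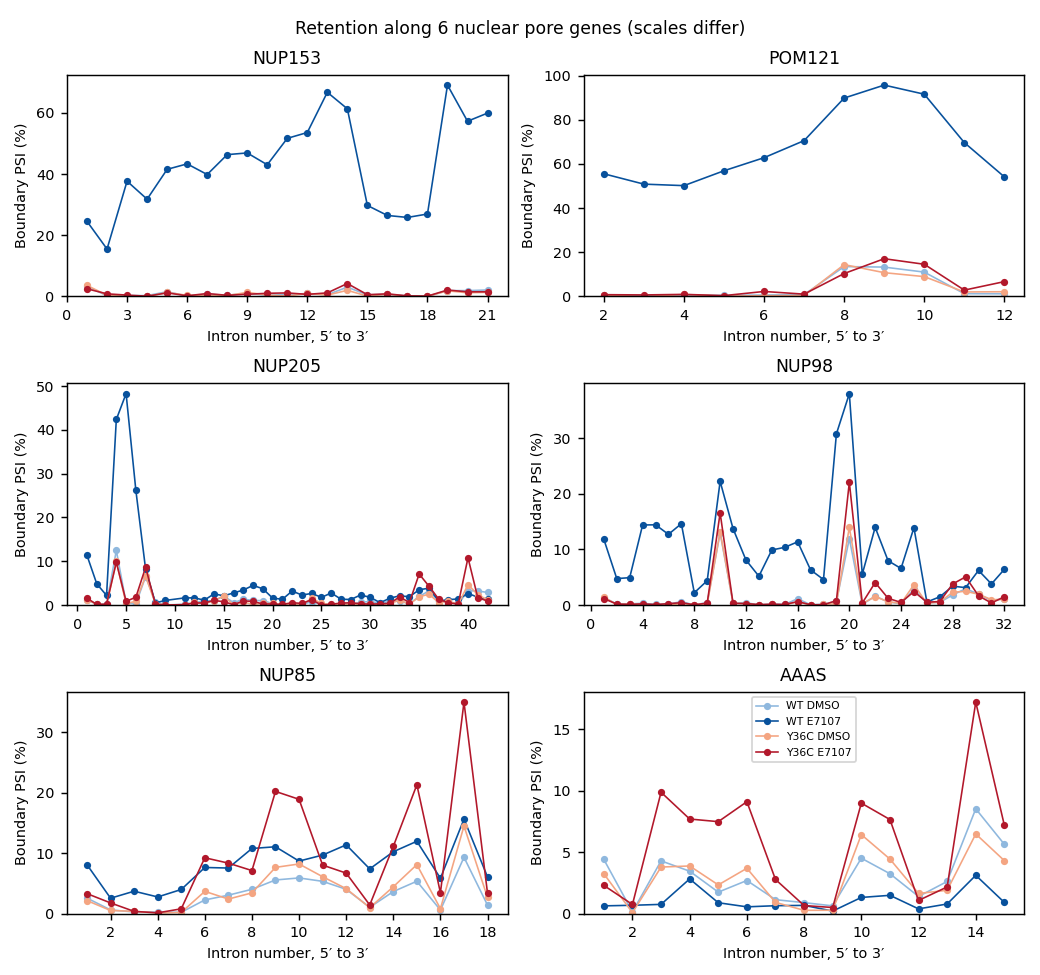
Mean boundary PSI of each intron (y axis, percent, scales differ between panels) by intron number from 5′ to 3′ (x axis) in NUP153, POM121, NUP205, NUP98, NUP85 and AAAS; each point is the mean of 6 samples and of both ends of an intron, coloured by group. NUP205 rises most in WT E7107 at introns 4 to 6, and NUP85 has its highest Y36C E7107 value, 35%, at intron 17.

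In NUP205 and NUP98 the largest rises in WT were at neighbouring introns. In NUP205, a large solenoid of the inner ring, introns 4, 5 and 6 rose by 29.9, 47.8 and 25.9 points in WT and intron 1 by 10.1 points, whereas the next largest change, in intron 2, was 4.66 points. In NUP98 introns 19 and 20 rose by 30.2 and 26.1 points and intron 5, the next, by 14.3 points. In AAAS 14 of 15 introns had lower mean retention in WT E7107 than in WT DMSO, and introns 14, 3 and 6 rose by 10.7, 6.09 and 5.42 points in Y36C. NUP42 was mixed in WT: introns 1 and 2 rose by 28 and 27.1 points, and intron 4 fell by 5.53 points.

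Introns of low GC content had larger changes in WT in this gene set. The median WT change was 11.2 points in the 150 introns under 35% GC, 7.78 points in 345 introns of 35 to 45%, and 0.851 points in the 153 introns of 45% or more. Over all genes the same classes had 6.04, 4.72 and 4.80 points. The Spearman coefficient of WT change and GC was −0.28 over the 648 introns and −0.02 over all 91721, and for the Y36C change it was 0.059 and 0.267. Introns of a gene share their GC content and their response, so these are descriptions of few genes. By length the members' medians lay between 6.04 and 8.56 points in 4 classes, with no order.

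**Figure D3:**
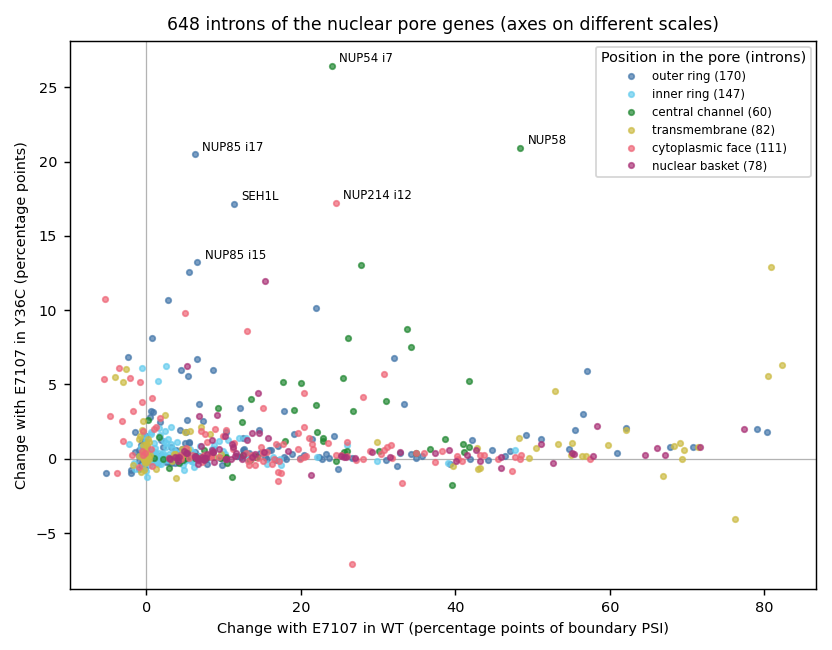
Change of boundary PSI with E7107 (percentage points, group means) in WT on the x axis and in Y36C on the y axis for the 648 introns, coloured by position in the pore, with axes on different scales. WT changes reach 82.4 points while Y36C changes reach 26.5 points, and the named introns of NUP54, NUP58, NUP85, NUP214 and SEH1L stand above the rest in Y36C.

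In Y36C 9 introns rose by at least 10 points at both ends, which was 1.39% of the members' introns against 3.93% over all genes. They were TPR intron 14, NUP85 introns 9, 15 and 17, NUP54 intron 7, POM121C intron 15, NUP214 intron 12, and a NUP58 and a SEH1L intron outside the MANE transcripts. NUP85 was the only gene with more than 1 of them. At NUP85 intron 17 the acceptor boundary went from 7.23, 8.15 and 13.3% with DMSO to 12.5, 16.1 and 19.8% with E7107 in WT. In Y36C it went from 10.7, 13.2 and 15.4% to 30, 35.3 and 38.7%. All 6 Y36C E7107 samples lay above the other 18, and the effect was larger in Y36C by 14.2 points (limma, adjusted p = 0.00719). NUP214 intron 12 had its acceptor at 3.92, 8.92 and 22.2% in Y36C DMSO and 19, 31.5 and 33.3% in Y36C E7107, and its effects in the 2 genotypes differed by 0.116 points (adjusted p = 0.944).

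4 introns of the set carry the letters TATCCTT at bases 2 to 8, the core of the 5′ splice site read by the minor (U12-type) spliceosome, which also contains SF3b. They were looked for on the sense strand only and made up 0.617% of the 648 introns, against 0.400% of all introns. They are shown with the first 14 bases of the intron, the letters in capitals, from AHCTF1 (chr1:247051465-247051478, −), NUP107 (chr12:69082834-69082847, +), NUP160 (chr11:47827691-47827704, −) and NUP205 (chr7:135329767-135329780, +), and were named after their values were seen.
AHCTF1 intron 19: gTATCCTTttaagt
NUP107 intron 2: gTATCCTTtgcgat
NUP160 intron 20: gTATCCTTttattt
NUP205 intron 40: gTATCCTTtatgaa

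Their changes in WT were 57.1, 4.53, 22.0 and −0.627 points in that order, and in Y36C 5.92, 0.172, 10.2 and 6.11 points. AHCTF1 intron 19, NUP160 intron 20 and NUP205 intron 40 had the largest Y36C change of their gene. Over all 367 introns with these letters the median change was 4.93 points in WT and 2.42 in Y36C, and over the 91354 without them 4.93 and 0.449 points.

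Exon-skipping junctions, which pass over at least 1 whole annotated exon, were tested next. In WT 40 of 127 rose and 40 fell, against 22.9% and 28.3% of all such junctions tested. In Y36C 51 of 143 rose and 14 fell, against 33.4% and 10.2%. Some of these junctions are the usual splice over an annotated exon that is rarely included. As with the boundaries, some junctions were let into the test by the E7107 samples alone. Among junctions under 50% in both DMSO groups, a limit added after the data were seen, 38 rose and 7 fell of 83 in WT, against 31.5% and 18.3% of all junctions under that limit. In Y36C 48 rose and 1 fell of 99, against 48.6% and 3.84%. The junctions that rose lay in 17 genes in WT and 22 in Y36C, and 13 junctions rose in both, 32.5% of those in WT and 25.5% of those in Y36C. The matching shares over all genes were not counted, so this overlap cannot be called particular to the nuclear pore genes. The interaction called 71 of 167 larger and 28 smaller in Y36C, against 35.7% and 14.9%, and with the same limit 43 and 27 of 123, against 35.3% and 15.5%.

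Some of the skipped exons among the leading results are shown with the exon in capitals and 20 bases of intron on each side, on the gene's strand. NUP54 exon 7 (chr4:77052383-77052437, −), NUP58 exon 7 (chr13:25893464-25893488, +) and NUP107 exon 15 (chr12:69114898-69114957, +) were skipped more in Y36C, and POM121C exon 8 (chr7:75055644-75055735, −) was skipped most in WT.
NUP54 exon 7: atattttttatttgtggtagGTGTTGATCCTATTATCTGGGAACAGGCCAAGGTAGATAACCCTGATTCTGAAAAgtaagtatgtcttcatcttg
NUP58 exon 7: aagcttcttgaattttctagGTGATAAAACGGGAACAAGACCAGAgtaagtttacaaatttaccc
NUP107 exon 15: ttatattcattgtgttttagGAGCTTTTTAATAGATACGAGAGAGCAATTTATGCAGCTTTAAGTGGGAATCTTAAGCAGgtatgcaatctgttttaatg
POM121C exon 8: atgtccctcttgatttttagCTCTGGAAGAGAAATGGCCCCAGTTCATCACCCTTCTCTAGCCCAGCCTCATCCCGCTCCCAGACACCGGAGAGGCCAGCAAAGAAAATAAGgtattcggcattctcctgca

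The 9 leading Y36C junctions that pass over 1 exon skipped wholly coding exons of 25 to 222 bases, and 4 of the 9 lengths were not a multiple of 3. NUP54 exon 7 has 55 bases and NUP58 exon 7 has 25, both 1 base over a multiple of 3, and NUP107 exon 15 has 60 bases. The junction over NUP58 exon 7 was at 0, 0.841 and 1.57% of the reads at the exon 6 donor in WT DMSO and 11.4, 14.3 and 25.6% in WT E7107. In Y36C it was at 0.457, 1.03 and 2.13% and 24.0, 29.9 and 33.7%, so that both genotypes rose without overlap and Y36C by 13.9 points more (limma, adjusted p = 0.0235). At the acceptor of exon 8 the same junction went from a mean of 0.997% to 16.3% in WT and from 1.36% to 30.1% in Y36C. There the difference of the effects was not called (limma, adjusted p = 0.0587). The boundary at that acceptor went from 5.15% to 32.1% in WT and from 7.08% to 14.3% in Y36C, while all other junctions there went from 93.9% to 51.6% and from 91.6% to 55.6%.

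Other junctions rose in Y36C with a called difference from WT. The junction over NUP107 exon 15 was at 0.575, 2.87 and 4.32% in Y36C DMSO and 13.3, 15.4 and 19% in Y36C E7107, and in WT at 0.858, 4.01 and 4.42% and 1.59, 2.54 and 7.43% (adjusted p of the difference 0.000713). The junction over NUP214 exon 30 went from 0, 1.61 and 5.36% to 9.80, 18.9 and 25% in Y36C and overlapped between the WT groups (adjusted p of the difference 0.000194). NUP98 exon 29 was skipped in 22.3, 26.3 and 32.1% in Y36C E7107 against 2.97, 8.01 and 10% in Y36C DMSO, and in WT E7107 in 0, 10.7 and 18.2%. NUP85 exon 7 and SEH1L exon 3 had rises of 11.2 points each in Y36C and called differences from WT. Over POM121 exon 10 the junction rose from 7.28% to 28.2% in Y36C and was not seen in WT E7107, where the boundary at the same acceptor took 91.4% of the reads.

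In WT the leading junctions, apart from the one over NUP58 exon 7, were over other exons. POM121C exon 8 was skipped in 0, 3.56 and 6.72% in WT DMSO and 36.6, 52.5 and 67.6% in WT E7107, and in Y36C in 1.05, 2.99 and 4.55% and 15.2, 17.9 and 23.2%. Both genotypes rose, WT by more (limma, adjusted p of the difference 0.00146). The junction over AHCTF1 exons 34 and 35 went from 1.02, 1.75 and 2.40% to 30.4, 37.8 and 42.4% in WT, and was no higher than 5.58% in any Y36C sample. Junctions over NUP153 exons 19 and 20 and over RANBP2 exon 19 had no reads in any WT DMSO sample and medians of 20.7% and 17.6% in WT E7107. A junction over NUP98 exon 2 was at most 0.719% in WT DMSO and had a median of 21.3% in WT E7107. In NUP214 a junction over 6 exons, 23 to 28, had no reads in WT DMSO and 4.76 to 14.3% of the reads in WT E7107. The junctions without reads in WT DMSO entered the WT test through the E7107 samples alone, so only a rise could be called.

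**Figure D4:**
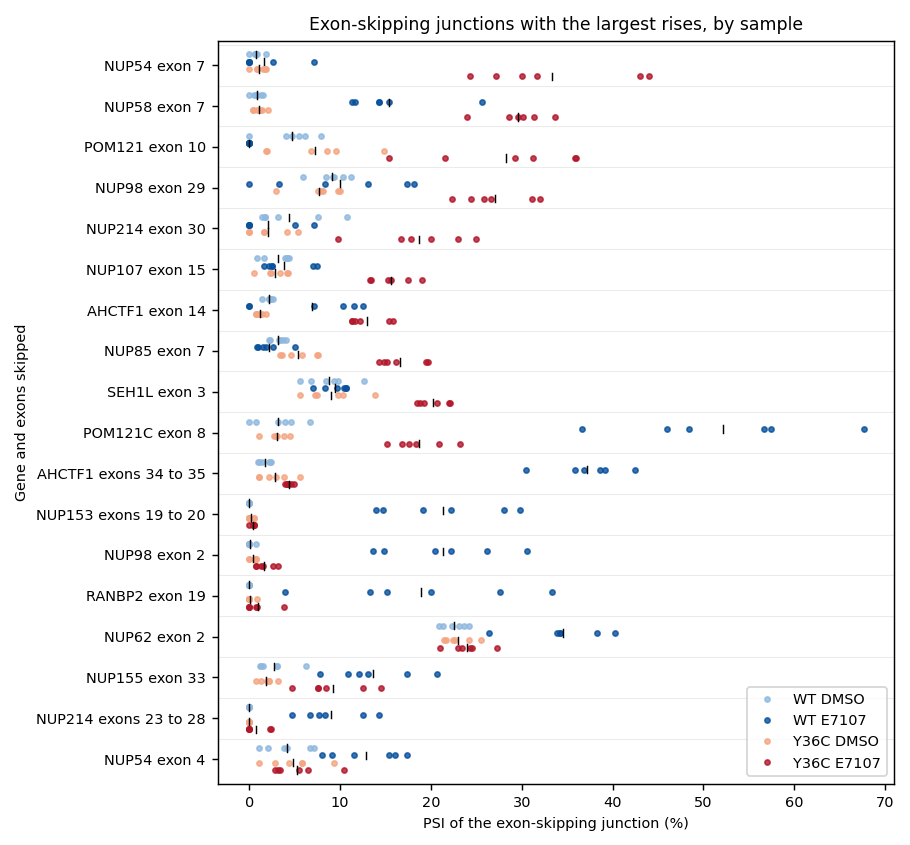
PSI of the exon-skipping junctions with the largest rises (x axis, percent) in each sample, with gene and skipped exons on the y axis; points are samples coloured by group and black ticks are group means. The Y36C E7107 points of NUP54 exon 7, NUP98 exon 29 and NUP107 exon 15 lie above the other groups, those of NUP214 exon 30 reach down to 9.80% beside a highest WT DMSO sample of 10.8%, and the WT E7107 points of POM121C exon 8 and AHCTF1 exons 34 to 35 lie above theirs.

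At the acceptor downstream of a skipped exon the reads divide among skipping, other junctions and the boundary. For AHCTF1 exon 14 the boundary took 53.0% of the reads in WT E7107 and 3.03% in Y36C E7107, while skipping took 5.81% and 18.1%. For NUP214 exon 30 the boundary was at 18.9% in WT E7107 and 9.39% in Y36C E7107, and skipping at 2.17% and 17.1%. NUP107 exon 15 had little of either in WT E7107, with the boundary at 2.17% and skipping at 3.88%, and 79.9% of the reads in other junctions in Y36C E7107 against 93.9% in WT E7107.

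**Figure D5:**
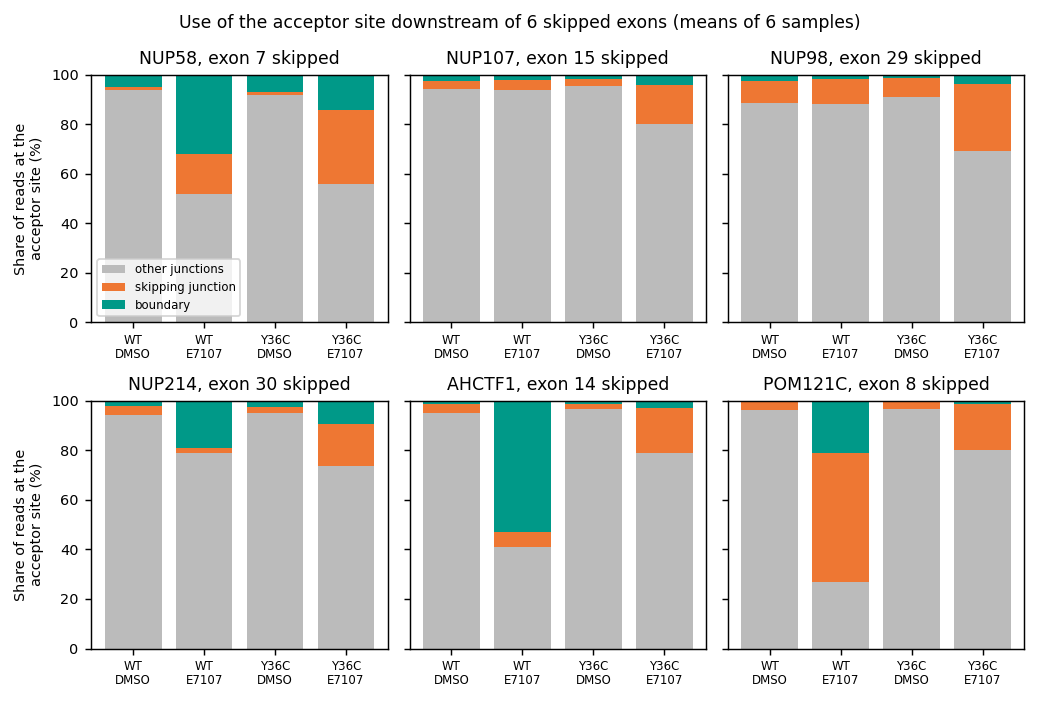
Share of the reads at the acceptor downstream of 6 skipped exons (y axis, percent, stacked to 100) in the 4 groups (x axis); bars are means of 6 samples, orange is the skipping junction, green the boundary and grey all other junctions. For AHCTF1 exon 14 the green part is 53.0% in WT E7107 and 3.03% in Y36C E7107, and for NUP58 exon 7 the orange part is 16.3% and 30.1%.

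NUP54 combined skipping with a shift of acceptor. From the exon 6 donor, the junction to exon 7 went from 86.5, 88.2 and 93.5% of the reads to 54.5, 65 and 80% with E7107 in WT. In Y36C it went from 80.2, 85.9 and 92.2% to 24.6, 32.4 and 35.4%. The junction that passes over exon 7 to the annotated acceptor of exon 8 rose in Y36C from a mean of 5.75% to 27.3% and was at 4.99% and 7.55% in WT. A further junction over exon 7 reached an acceptor 43 bases upstream of exon 8, with 0, 1.18 and 1.90% in Y36C DMSO and 24.3, 30.9 and 44% in Y36C E7107. In WT it had 0, 0.712 and 1.82% and 0, 0 and 7.14%, and the difference of the effects was 31.4 points (limma, adjusted p = 3.52e-06). This junction entered the test through the Y36C E7107 samples alone, the group where it was high. A larger effect in Y36C was therefore the likelier call from the start. The last 100 bases of intron 7 (chr4:77051903-77052002, −) hold both acceptors, their AG in capitals.
NUP54 intron 7: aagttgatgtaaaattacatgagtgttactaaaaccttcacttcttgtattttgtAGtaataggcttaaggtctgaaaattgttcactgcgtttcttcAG

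Transcripts spliced at the upstream AG run unspliced across the annotated one, so they count as boundary reads there. The boundary of exon 8's acceptor was at 2.90, 8.92 and 13% in Y36C DMSO and 42.5, 49.8 and 57.1% in Y36C E7107, the largest called rise of a boundary in Y36C, and at 5.07, 6.76 and 13.4% and 16.3, 36.3 and 44.4% in WT. The boundary at the exon 6 donor was at 6.4% and 5.98% in Y36C, and at 4.63% and 24.8% in WT.

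Between the 2 DMSO groups, limma called none of the 31 genes at the gene level, where 0.384% of all genes tested were higher in Y36C and 0.288% lower. At an unadjusted p under 0.05 there were 5 of the 31. It called 12 of 2019 rows of the nuclear pore genes (0.27% of all rows tested), of which 7 were higher in Y36C and 5 lower (0.137% and 0.133% of all rows tested). It called none of the 114 exon-skipping junctions tested, where 0.594% of all were called. Of the 114, 23 had an unadjusted p under 0.05. Each junction was counted by the end with the smaller p, which can raise that number. The shares under 0.05 over all genes were not counted. The 5 genes and 23 junctions therefore cannot be read as a genotype effect in these genes. Leaving out 1 sample at a time left 6 to 12 rows. The largest difference was in SEC13 at its last splice. The junction to the nearer acceptor took 80.4, 85.2 and 88.3% of the donor's reads in WT DMSO and 66.1, 70.9 and 73.9% in Y36C DMSO, without overlap (adjusted p = 0.00498). The junction to the farther acceptor took 10, 13 and 17.6% and 20.5, 26.7 and 30.4% (adjusted p = 0.0124). NUP85 intron 17 was spliced less in Y36C DMSO, at 74.6, 77.6 and 81.0% against 82.4, 86.7 and 89.6% in WT DMSO (adjusted p = 0.0368), a call lost without any 1 of 10 of the 12 samples (limma, adjusted p up to 0.0797). Its boundary PSI at that donor was 9.64% and 15.7% (adjusted p = 0.0916).

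The transport factors that use the pore, importins, exportins, the Ran cycle and mRNA export genes, were counted from a list of 35, of which 34 could be tested at the gene level. In WT 31 rose and 2 fell, where 72.2% and 7.6% of all genes tested did. In Y36C 26 rose and none fell, against 47.4% and 0.892%, and 30 had a smaller and 2 a larger effect in Y36C, against 60.6% and 13.4%. Their median change was 8.23 points in WT and 0.925 points in Y36C, beside 8.40 and 1.00 points for the pore genes. NXF1, the mRNA export receptor, had the largest rise in WT, of 50.6 points, and IPO13 the largest in Y36C, of 9.45 points. GLE1, which works with NUP42 at the export helicase, fell by 1.23 points in WT (limma, adjusted p = 0.00194).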

How the data were processed

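Per the labels and the study's methods, poly(A) RNA of 24 HCT-116 samples, 6 in each of 4 groups, was sequenced and aligned by the authors to hg19 with STAR (versions not given in the sources used here), and the authors computed each PSI from junction counts. The deposited values are PSI in percent, 1830076 per sample, and 6433 mitochondrial or strandless rows were not used here. Read counts were not used here, so no count model applied and the precision of a single value is unknown. At each splice site the values sum to 100, or to 0 where there were no reads, which was treated as missing.

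limma 3.58.1 (R 4.3.3) was fitted to ln((PSI + 1)/(100 − PSI + 1)) over all rows whose site had reads in every sample of the fit and with PSI over 0 throughout 1 group or more, with Benjamini–Hochberg adjustment over the whole table and a threshold of 0.05. WT, Y36C and DMSO comparisons used 12 samples, and the interaction all 24. Gene-level retention needed at least 4 boundaries with reads in all samples. An exon-skipping junction was counted once, by the end with the smaller p. The code was tested on simulated data. Introns, exons and roles came from GENCODE v44 on GRCh37. Changes in percentage points are differences of group means, and ± is the SE of the log odds.

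Named single rows were, at most 1 per gene and list, the 10 largest called rises and 5 largest called falls of boundaries per genotype, the 10 largest called rises of exon-skipping junctions per genotype, the 5 largest interactions in each direction, and the rows called between the DMSO groups, from which a selection is described. NUP85 and SEC13 profiles, the acceptor shift in NUP54 and the TATCCTT introns were chosen after their values were seen. The members and lists were chosen with earlier results of these data known. Alternatives were other offsets, PSI in percent, filters, a minimum change, medians, a replicate block and leaving out each sample. No PECAM1 value was analysed here.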

Additional observations from a re-analysis of the deposited data

Results flagged for a closer look

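Within groups of 6 samples, 6 of 124 gene-level groups held a sample far from the other 5 by Dixon's test, about the 1 in 20 that chance gives. In Y36C DMSO these were replicate 2 of NUP43 at 2.38% (others 1.20 to 1.64%), replicate 4 of AHCTF1 at 0.405% (others 0.551 to 0.613%), replicate 3 of NUP35 at 1.02% (others 0.444 to 0.652%) and replicate 6 of AAAS at 5.11% (others 5.70 to 6.03%). In WT E7107 it was replicate 5 of SEC13 at 9.51% (others 10.8 to 11.2%), and in Y36C E7107 replicate 5 of NUP62 at 65.7% (others 63.5 to 64.2%).

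The effect of E7107 on gene-level retention differed between the genotypes in 27 genes by the interaction term (limma). As the Y36C change minus the WT change, the difference was −59.3 points in POM121, −55.1 in NUP50, −52.0 in POM121C, −41.6 in NUP153, −40.4 in AHCTF1, −35.7 in RANBP2 and −28.8 in NUP58. It was −17.7 points in NUP54, −16.8 in NUP35, −15.5 in NUP62, −15.5 in NUP214, −14.1 in NUP160 and −13.9 in RAE1. In NUP98 it was −7.80 points, in TPR −7.65, in NUP155 −7.11, in NDC1 −4.50, in NUP43 −4.42, in NUP205 −3.79 and in NUP88 −3.49. The smallest negative differences were −2.13 points in SEC13, −1.83 in NUP93, −1.72 in SEH1L and −0.686 in NUP107. It was positive in NUP37 (0.818 points), NUP210 (1.53 points) and AAAS (4.62 points), and of these 3 genes AAAS and NUP210 fell in WT and rose in Y36C.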

How the results depend on the processing

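The counts in WT of boundaries and of gene-level calls kept within 1.5 times their value except where a minimum change was asked for. With a change of at least 10 points required, 30 boundaries rose in Y36C, 11 exon-skipping junctions rose in WT and 15 in Y36C, 40 such junctions had a larger effect in Y36C, 4 rows differed between the DMSO groups, and 13 genes rose in WT, 0 in Y36C and 13 had an interaction. With rows of mean PSI of at least 5% only, 85 boundaries and 33 exon-skipping junctions rose in Y36C and 6 rows differed between the DMSO groups. Without the filter on PSI, 66 exon-skipping junctions rose in WT and 6 rows differed between the DMSO groups, and with an offset of 0.1 there were 5 such rows. With junctions under 50% in DMSO only, chosen after seeing the data, 43 had a larger effect in Y36C. With medians over boundaries, 13 genes rose in Y36C, the mean boundary PSI became 0.515% and 6.85% in the WT groups and 0.120% and 0.721% in the Y36C groups, and the sign turned for NUP43 in Y36C (−0.00901 points) and for the interactions of NUP37 (−0.324 points) and NUP188 (−0.379 points). Over annotated sites alone that mean was 2.41, 2.28 and 3.39% in WT DMSO, Y36C DMSO and Y36C E7107. Samples with the same replicate number did not deviate together (correlations −0.0055 to 0.0059 over 835349 rows), so the numbers do not pair them, and each sample correlated best with its own number in 0 to 2 of 6 cases. With the replicate block in limma 0 rows differed between the DMSO groups (198 of 2019 at an unadjusted p under 0.05), 3 gene-level calls in Y36C and 1 interaction were lost, and no gene-level call in WT. The share matching the 198 rows over all genes was not counted. Leaving out 1 sample at a time gave 687 to 730 boundaries up in WT and 117 to 132 in Y36C, 38 to 47 and 49 to 62 exon-skipping junctions, 611 to 652 and 69 to 77 interactions of boundaries and junctions, 27 genes in WT, 21 to 23 in Y36C and 26 to 28 interactions, and mean boundary PSI of 2.54 to 2.61, 16.2 to 17.1, 2.44 to 2.50 and 3.56 to 3.61%. The DMSO rows were 6 to 12: 6 without WT DMSO replicate 3 or without Y36C DMSO replicate 1, 3 or 6, and 7 without Y36C DMSO replicate 2 or 4. The rise of SEC13 in Y36C was lost without any 1 of 6 samples and its interaction without any 1 of 10. The interaction of NUP42 was gained without any 1 of 8 samples, and rises in Y36C were gained for NUP107 and NUP155 without Y36C DMSO replicate 2, for NUP155 without replicate 3 and for NUP205 without replicate 4. The cause was not tested.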
